A study of Mus musculus with 8 samples.

Results

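Ventricular cardiomyocytes (CMs) of adult mice with hypertrophic hearts, taken on day 7 after an operation, were compared with CMs of normal adult ventricles across all genes. The members were the genes with a probe of detection p under 0.05, the Illumina measure of signal above negative-control beads, on at least 2 of the 6 arrays of these groups. Of 16593 genes with a named probe, 8732 met this rule. Hypertrophic adult CMs (hypertrophic ACMs, 3 arrays) carried the strain label CD1, and normal adult CMs (normal ACMs, 3 arrays) the label CD1 background. The sample names give the operation as TAC without spelling it out, no operation or sham is named for the normal ACMs, and the difference therefore holds the operation, the hypertrophy and any difference between the strain labels, which cannot be told apart. Another group, 2 arrays of fetal ventricle CMs (embryonic CMs, E15.5, CD1 background), entered the fit only for its spread. All samples were total RNA of preparations enriched for CMs, hybridised to Illumina MouseRef-8 v2.0 BeadChips with 1 array per sample. Whether each sample came from its own animals is not stated in the sources used here. The p-values set the difference between groups against the spread of samples within groups, and that spread may therefore be technical. The arrays are called N1 to N3 (normal ACMs), H1 to H3 (hypertrophic ACMs) and E1 and E2 (embryonic CMs) after the replicate numbers of the labels.

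Adult ventricular CMs draw most of their ATP from fatty acids that are burnt in densely packed mitochondria, under control of nuclear receptors such as PPAR alpha and its partners. Under pressure overload the ventricle is known to thicken, to switch on genes of the fetal ventricle, to lean more on glucose and to lay down matrix, most of which is made by fibroblasts. Interferons, which are cytokines of the antiviral response, switch on GTPases, antiviral effectors and the machinery that presents peptides on MHC molecules in nearly every cell type.

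N2 stood apart from the other arrays in genes that interferons induce, with a median difference of 2.26 on the log2 scale from the mean of N1 and N3. Results for the interferon, antigen presentation and leukocyte lists, and for some other genes that stood apart on N2, are therefore given with and without it. Other differences include N2. From 41.9% to 46.3% of probes were detected on the 6 adult arrays, and the median intensity before normalisation lay between 92.3 and 99.9. Within both adult groups, arrays correlated at 0.96 or more across the genes kept (a description over 8732 genes). The 2 embryonic arrays, which also set the spread, correlated at 0.991. The markers of the labelled cell type were present on every adult array. Of 14 CM markers, 13 were kept, the exception being Tnnt2, which had no named probe. Their summed linear signal was 248486 to 259915 on the normal and 264369 to 272790 on the hypertrophic ACM arrays. Markers of other cells were present as well. The 16 kept fibroblast markers summed to 2319 to 4120 on the normal and 8075 to 12834 on the hypertrophic ACM arrays, and the kept leukocyte markers to 1208 to 6308 and 4656 to 6505. In such bulk RNA, a change in the number of cells of a type and a change in RNA per cell cannot be told apart.

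Hypertrophic ACMs had lower levels of Ces1d, which hydrolyses stored lipid (3.19-fold), of the Hsp90 partner Fkbp4 (2.42-fold), of the ADP receptor P2ry1 (3.02-fold) and of the membrane protein Ano10 (3.93-fold). They had higher levels of the enolase Eno2 (17.4-fold), the secreted factors Fstl1 (12.9-fold) and Serpina3n (14.6-fold), the fetal myosin Myh7 (4.24-fold) and many matrix genes. Of all genes, 376 passed as higher than in normal ACMs and 188 as lower at an adjusted p under 0.05 from limma, which is 4.31% and 2.15% of the 8732 genes. The higher genes differed more and started lower. Their median difference was 1.27 on the log2 scale and their median level in normal ACMs was 6.26, against a median decrease of 0.91 and a median level of 7.79 for the lower genes. Over all genes the median difference was -0.03. All 3 hypertrophic arrays lay above all 3 normal arrays for 13.1% of the genes and below them for 13.9%, so the groups were apart about as often downwards as upwards. The groups were apart in all 376 higher and all 188 lower genes, so this trait does not set any called gene above the others. Most lower calls lay near the threshold, with 165 of 188 at an adjusted p between 0.01 and 0.05, against 232 of 376 higher calls. Both counts moved with single arrays. A call is termed stable below where it held with each of the 8 arrays left out in turn, which was so for 155 higher and 30 lower genes. For the other called genes that are named, the arrays without which the call was lost are given. Without H2 or H3, 181 and 203 genes were higher and 55 and 52 lower. Without N1 or N3, 120 and 84 were lower. Without either embryonic array, which leaves the other without a replicate, 235 were higher and 70 lower. In all, 148 higher and 26 lower genes passed in every one of 20 alternative analyses at the same threshold. Scaling arrays to their medians in place of quantile normalisation gave 369 higher and 85 lower genes.

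The rule on detection bears on these calls. Of the called genes, 247 higher and 151 lower were detected on all 6 arrays. A further 55 higher genes were detected on hypertrophic arrays only and 13 lower genes on normal arrays only, and such genes entered through the group in which they were high. Genes detected on exactly 2 arrays had a median level of 4.66 on the log2 scale, and the 1684 genes just outside the rule, detected on 1 array, had a median level of 4.50. Of the called genes with several kept probes, 6 of 88 higher and 5 of 49 lower genes had another probe of opposite sign.

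**Figure D1:**
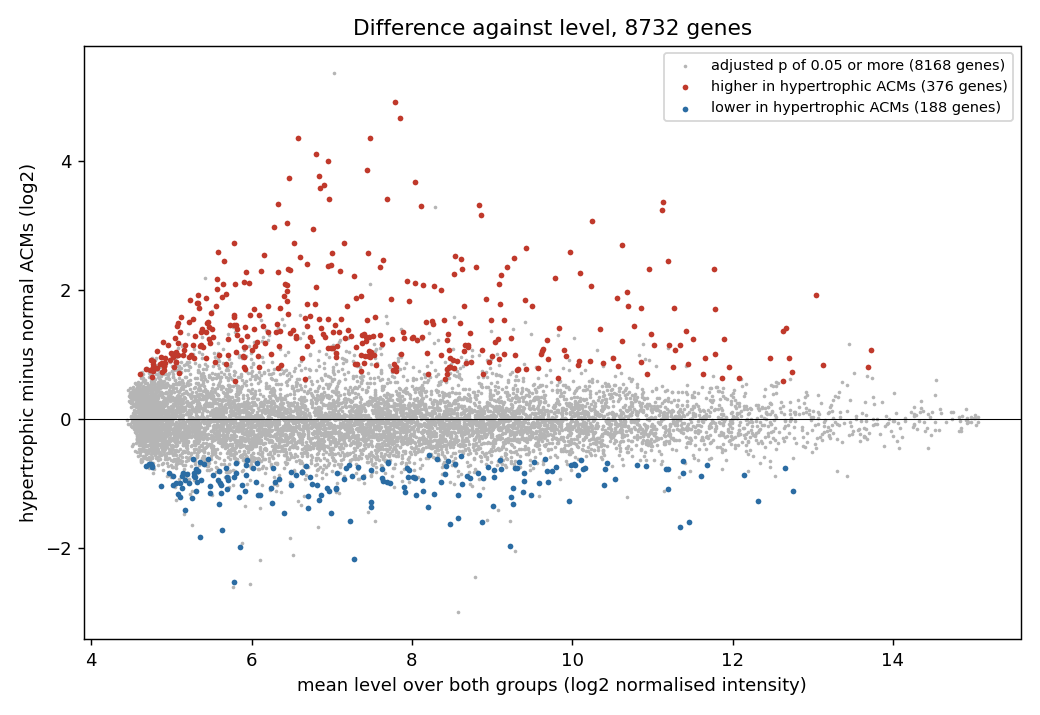
Each point is 1 of 8732 genes, placed by its mean log2 normalised intensity over both adult groups and by the log2 difference of hypertrophic minus normal ACMs. The 376 higher genes reach 4.92 (Col1a1) and the 188 lower genes reach -2.53 (Cyp2b10), while larger differences without a call were those of Sspn, at 5.37, Igtp, at -3.00, Cd274, at -2.61, and Gbp10, at -2.56, in each of which arrays of 1 group differ widely.

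Several of the lower genes activate, store or burn lipids. Levels below are log2 normalised intensities in the order of replicates 1, 2 and 3. Ces1d, a carboxylesterase that hydrolyses triacylglycerol, read 11.997, 12.28 and 12.26 in normal ACMs against 11.02, 10.42 and 10.08 in hypertrophic ACMs. The groups did not overlap, the difference was -1.67 (SE 0.24, adjusted p = 0.00504), or 3.19-fold lower, and the call held in all 20 alternatives. The probe may read near-identical carboxylesterase genes. Acsl6, which activates long-chain fatty acids to their CoA esters, read 8.79, 8.82 and 7.49 in normal and 6.96, 6.45 and 5.18 in hypertrophic ACMs. It fell by 2.17 (SE 0.47, adjusted p = 0.0299), and the call was lost without N1, N2, H2, H3, E1 or E2 (adjusted p up to 0.0774). Its other kept probe stood at -0.79. Acsm5, a mitochondrial activator of medium-chain fatty acids, was above background on all 3 normal arrays and on no hypertrophic array. It was brightest on N2, at 7.11, and the difference was -1.84 (SE 0.31) with N2 and -1.42 (SE 0.16) without it. With N2, Acsm5 was at least 2.91-fold lower (adjusted p = 0.0108), and it met the detection rule only through the normal arrays. Here and below, such a bound divides the mean of the bright group by the mean of a floor over the dim arrays, where the floor is the probe's signal or, if that is larger, the dimmest signal detected on the array.

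Cyp2b10, a cytochrome P450 best known as a target of the xenobiotic receptor CAR in liver, showed the largest decrease of a called gene. Its levels were 7.97, 5.28 and 7.90 in normal ACMs against 4.47, 4.44 and 4.64 in hypertrophic ACMs. N2 lay far below the other normal arrays, and no hypertrophic array was above background, which gives a bound of at least 4.97-fold (adjusted p = 0.0411). Cyp2b10 met the detection rule only through the normal arrays. The difference was -2.53 (SE 0.60) with N2 and -3.42 (SE 0.16, adjusted p = 1.20e-04) without it. The call was lost without N1, N3, H1, H2, H3, E1 or E2 (adjusted p up to 0.121). Thrsp, a thyroid hormone-responsive gene of lipid synthesis, stood at -1.58 (SE 0.38, adjusted p = 0.0444), and that call was lost without N1, N3, H2, H3, E1 or E2 (adjusted p up to 0.143).

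Of 40 listed genes of fatty acid oxidation and lipid use, 33 were kept. Of these, 2 were lower, none was higher and 31 did not pass, and the median difference of the list was -0.38 against -0.03 for all genes. In 16 of the 33, all hypertrophic arrays lay below all normal arrays, against 13.9% of all genes, and in none above. Decr1, an auxiliary enzyme of unsaturated fatty acid oxidation, read 9.65, 9.87 and 9.89 in normal and 8.82, 8.59 and 8.77 in hypertrophic ACMs, a difference of -1.07 (SE 0.20, adjusted p = 0.0151). Plin5, which coats lipid droplets beside mitochondria, stood at -0.78 (SE 0.18, adjusted p = 0.0349). The call of Decr1 was lost without H2 or H3 (adjusted p up to 0.0624), and that of Plin5 without N1, N3, H2, H3, E1 or E2 (adjusted p up to 0.128). The count of lower genes was 0 without H2 or H3, 1 without N3 or either embryonic array and 4 without N2. Members that did not pass included the carnitine palmitoyltransferases Cpt2 at -0.68 (SE 0.20) and Cpt1b at -0.32 (SE 0.14), the malonyl-CoA decarboxylase Mlycd at -0.70 (SE 0.19), the acyltransferase Dgat2 at -0.88 (SE 0.26) and the fatty acid-binding protein Fabp3 at 0.03 (SE 0.16). Cpt1b, which carries out the entry step into mitochondria, Cpt2 and Fabp3 were named after their values were seen.

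Of 22 listed nuclear receptors and coactivators of metabolism, 15 were kept, 2 of them lower and none higher, with a median of -0.26. Ppara, the receptor that drives genes of fatty acid oxidation, had levels of 7.03, 6.55 and 6.84 in normal ACMs against 6.08, 5.87 and 5.68 in hypertrophic ACMs. The groups were apart, and the difference was -0.93 (SE 0.18, adjusted p = 0.0210). Rxrg, a retinoid X receptor that pairs with it, stood at -1.36 (SE 0.28, adjusted p = 0.0231). Rxrg was brightest on N2, at 10.37, and without N2 its difference was -1.02 (SE 0.18). Neither call was stable to single arrays. That of Ppara was lost without N1, N3, H2 or H3 (adjusted p up to 0.0819) and that of Rxrg without H2, H3, E1 or E2 (adjusted p up to 0.0874). The coactivator Ppargc1a, named after its value was seen, at -0.60 (SE 0.22), and its muscle target Perm1, at -0.64 (SE 0.17), did not pass (adjusted p = 0.149 and 0.0596), although in both all hypertrophic arrays lay below all normal arrays. Beside these, none of the 13 kept CM markers passed (limma, 0 higher and 0 lower at p under 0.05 before adjustment) and their median was 0.02.

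Of 29 genes listed for the TCA cycle and pyruvate metabolism, 23 were kept. Dlat, the acetyltransferase of pyruvate dehydrogenase, was lower, at -0.997 (SE 0.21, adjusted p = 0.0258), and Pdk1, a kinase that inhibits this enzyme, was higher, at 0.61 (SE 0.15, adjusted p = 0.0447). The call of Dlat was lost without N1, N2, H2 or H3 (adjusted p up to 0.0964), and that of Pdk1 without any of the 8 arrays (adjusted p up to 0.137). In amino acid and ketone use, 1 of 22 kept genes was lower and none higher, with a list median of -0.29. The lower one was Dbt, a core subunit of the branched-chain ketoacid dehydrogenase, at -0.90 (SE 0.18, adjusted p = 0.0225), whose call was lost without N1, N3, H1, H2, E1 or E2 (adjusted p up to 0.0835). None of 40 kept respiratory chain and ATP synthase genes passed with limma (0 higher and 2 lower at p under 0.05 before adjustment), and their median was -0.09. Without N2, 1 of them was lower. Lower calls also included 5 genes of mitochondrial proteins, picked from the 188 lower genes after their values were seen and out of no fixed list. The kept genes of all mitochondrial proteins were not counted, so no share stands beside these 5 genes. They were the disaggregase Clpb, at -1.18 (SE 0.18), which was stable, the fission protein Mtfp1, at -1.19 (SE 0.23), the pyruvate dehydrogenase phosphatase Pdp2, at -1.03 (SE 0.20), the topoisomerase Top1mt, at -0.76 (SE 0.19), and the carrier Slc25a47, at -0.88 (SE 0.19). Of these calls, those lost were Mtfp1 without N3, H2 or H3 (adjusted p up to 0.0729), Pdp2 without H2 or H3 (adjusted p up to 0.0563), Top1mt without N1, N2, N3, H2, H3, E1 or E2 (adjusted p up to 0.163) and Slc25a47 without N2, N3, H1, H2, H3, E1 or E2 (adjusted p up to 0.0945). Among 71 kept genes of mitochondrial ribosomal proteins, grouped by symbol after the values were seen, Mrpl45, Mrpl55 and Mrps25 were lower and none was higher, which is 4.23% lower against 2.15% of all genes, with a median of -0.26. Of 30 kept mitochondrial carriers, grouped in the same way, Slc25a47 was lower (3.33%) and none higher. None of the 3 ribosomal calls was stable, with adjusted p up to 0.166 in Mrps25, of which another kept probe had the opposite sign.

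**Figure D2:**
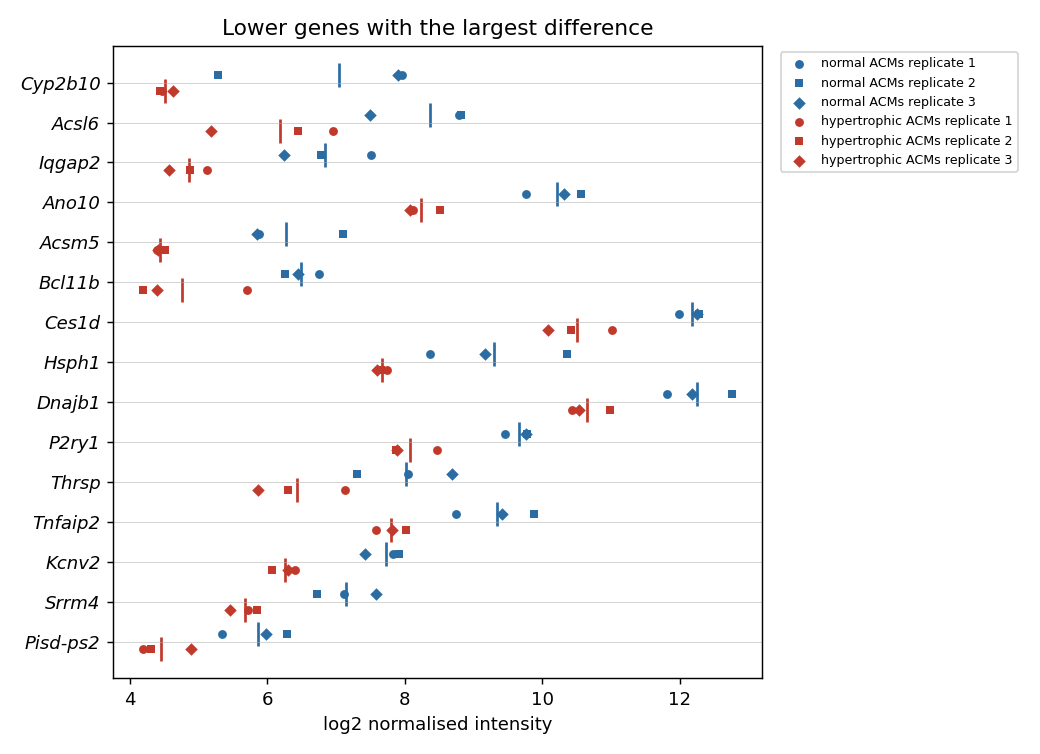
Log2 normalised intensity (x axis) of the 15 called lower genes with the largest difference on each of the 3 normal ACM arrays (blue) and 3 hypertrophic ACM arrays (red), with a vertical mark at each group mean. In every gene the groups do not overlap, as the choice of genes required, while the gap is narrow in Thrsp and wide in Ano10 and Ces1d.

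Some chaperones of the Hsp70 and Hsp90 cycles were lower in hypertrophic ACMs. Of 42 listed heat shock proteins and co-chaperones, 37 were kept, 4 of them lower and none higher, with a list median of -0.16. Dnajb1, a J-domain protein that hands substrates to Hsp70, read 11.82, 12.76 and 12.18 in normal ACMs against 10.43, 10.98 and 10.54 in hypertrophic ACMs. All hypertrophic arrays lay below all normal arrays, and the mean fell by 1.599 on the log2 scale (SE 0.26, adjusted p = 0.00829), or 3.03-fold. Without N2, its brightest array, the difference was -1.34 (SE 0.22). Fkbp4, an immunophilin that joins Hsp90 to steroid receptors, read 12.88, 12.83 and 13.14 in normal and 11.84, 11.58 and 11.62 in hypertrophic ACMs, a difference of -1.27 (SE 0.16, adjusted p = 0.00260). Both calls held in all 20 alternatives. Ahsa1, which activates the ATPase of Hsp90, stood at -0.90 (SE 0.16, adjusted p = 0.0142), and Hsph1, a large Hsp70 relative that exchanges its nucleotide, at -1.63 (SE 0.41, adjusted p = 0.0485). Hsph1 was highest on N2, where it read 10.36 against 8.36 and 9.17 on N1 and N3. Without N2 its difference was -1.10 (SE 0.24, adjusted p = 0.0323). The call of Hsph1 was lost without N3, H1, H2, H3, E1 or E2 (adjusted p up to 0.139), and that of Ahsa1 without H2 or H3 (adjusted p up to 0.0513). Without N2 the count of lower genes was again 4, while the list median was -0.07, against -0.02 for all genes. Without H2, and under median scaling, it was 2. Other members varied. Bag2, a co-chaperone of Hsp70, stood at -1.85 (SE 0.55) and the inducible Hsp70 gene Hspa1a, which has a near-identical copy, at -1.59 (SE 0.57), and neither passed (adjusted p = 0.0861 and 0.140). The constitutive Hspa8 stood at -0.03 (SE 0.17), Hsp90aa1 at -0.15 (SE 0.22) and the small heat shock protein Hspb6 at 0.02 (SE 0.14). These 5 genes that did not pass were named after their values were seen.

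Among membrane proteins of CMs, P2ry1, a receptor for ADP, read 9.46, 9.78 and 9.76 in normal ACMs against 8.47, 7.87 and 7.89 in hypertrophic ACMs. It was 3.02-fold lower, a difference of -1.59 (SE 0.23, adjusted p = 0.00523). Kcnv2, a silent subunit that modifies voltage-gated potassium channels, read 7.84, 7.92 and 7.42 in normal and 6.41, 6.07 and 6.31 in hypertrophic ACMs, a difference of -1.46 (SE 0.18, adjusted p = 0.00260). Both sets of arrays were clear of each other, and both calls held in all 20 alternatives. Of 37 genes listed for ion channels and calcium handling, 25 were kept, and beside Kcnv2 the lower ones were Kcnd2, a pore subunit of the transient outward current, at -0.78 (SE 0.18, adjusted p = 0.0401), and Scn4b, a beta subunit of sodium channels, at -1.32 (SE 0.32, adjusted p = 0.0434). None was higher, and the list median was -0.03. Kcnd2 was lost without any of the 8 arrays (adjusted p up to 0.125) and Scn4b without N2, N3, H2, H3, E1 or E2 (adjusted p up to 0.144), and the list held 1 lower gene without N3, H2 or H3 or either embryonic array. The calcium pump Atp2a2 stood at 0.02 (SE 0.14) and the ryanodine receptor Ryr2 at -0.10 (SE 0.26), 2 members named after their values were seen, and neither passed (adjusted p = 0.966 and 0.856).

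Of 36 listed receptors and signalling proteins of CMs, 25 were kept, 4 higher and 2 lower, with a median of 0.02. The lower ones were P2ry1 and Lifr, the receptor chain for leukaemia inhibitory factor, which stood at -1.02 (SE 0.18, adjusted p = 0.0139) and was lost without H2 or H3 (adjusted p up to 0.0561). The other 2 kept probes of Lifr stood at -0.59 and -0.27. Osmr, the receptor chain for oncostatin M of the same cytokine family, moved the other way. It read 4.65, 6.04 and 5.64 in normal and 7.13, 7.65 and 7.51 in hypertrophic ACMs, and all hypertrophic arrays lay above all normal arrays, with a mean difference of 1.98 (SE 0.32, adjusted p = 0.00923). Their shared partner Il6st stood at -0.56 (SE 0.28) and did not pass (adjusted p = 0.269; named after its value was seen). Tnfrsf12a, the receptor for the cytokine TWEAK, stood at 1.78 (SE 0.29, adjusted p = 0.00945), Grk5, a kinase that desensitises G protein-coupled receptors, at 1.00 (SE 0.18, adjusted p = 0.0152), and Igf1r, the receptor for insulin-like growth factor 1, at 0.96 (SE 0.24, adjusted p = 0.0464). Grk5 and Igf1r were named after their values were seen, and their calls were lost, Grk5 without H2 or H3 (adjusted p up to 0.0603) and Igf1r without N1, N3, H1, H2, H3, E1 or E2 (adjusted p up to 0.153). The other kept probe of Grk5 stood at 0.22. Without H2 or H3, 2 receptors were higher and 1 lower.

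Further large decreases were in genes of varied roles. Ano10, a member of the anoctamin membrane proteins, read 9.76, 10.57 and 10.31 in normal ACMs against 8.12, 8.51 and 8.08 in hypertrophic ACMs, 3.93-fold lower with a difference of -1.97 (SE 0.26, adjusted p = 0.00297). Iqgap2, a scaffold of the cytoskeleton, read 7.51, 6.79 and 6.25 in normal and 5.12, 4.88 and 4.58 in hypertrophic ACMs, a difference of -1.99 (SE 0.30, adjusted p = 0.00597), and was above background on 2 of the hypertrophic arrays. Tnfaip2, a gene induced by tumour necrosis factor, stood at -1.55 (SE 0.27, adjusted p = 0.0132), and its other 2 kept probes at -1.26 and -1.18. Srrm4, a splicing regulator of neuronal microexons, stood at -1.46 (SE 0.23, adjusted p = 0.00829) and its other probe at -1.35. These 4 calls held in all 20 alternatives. Bcl11b, a zinc-finger transcription factor known from T cells, stood at -1.72 (SE 0.36, adjusted p = 0.0247) with 1 hypertrophic array above background, and was lost without N1, N3, H2, H3, E1 or E2 (adjusted p up to 0.0931). Pisd-ps2, a pseudogene whose probe may also read Pisd, stood at -1.41 (SE 0.28, adjusted p = 0.0218) and was lost without N3, H1 or H2 (adjusted p up to 0.0813). Named after their values were seen, the neprilysin gene Mme stood at -1.33 (SE 0.20), the kyphoscoliosis peptidase Ky of muscle at -1.19 (SE 0.17), the tubulin Tuba4a at -1.13 (SE 0.16) and the ephrin receptor Ephb1 at -1.37 (SE 0.21), and these 4 also passed in all 20 alternatives. The other kept probe of Mme stood at -0.23.

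Outside the matrix list and the fibroblast markers, which hold 41 of the 376 higher genes, the largest increase was in Eno2, the enolase isoform known from neurons. It read 5.15, 4.76 and 4.31 in normal ACMs against 8.85, 9.26 and 8.47 in hypertrophic ACMs. The lowest hypertrophic array lay far above the highest normal array, the difference was 4.12 (SE 0.26, adjusted p = 1.03e-04), and 1 normal array was above background. Beside it, Pfkp, the platelet-type phosphofructokinase, was higher by 1.32 (SE 0.21, adjusted p = 0.00829) and the glucose transporter Slc2a1 by 1.00 (SE 0.19, adjusted p = 0.0177). The call of Slc2a1 was lost without H3 (adjusted p up to 0.0683). They were the 3 higher genes among 25 kept of 30 listed genes of glycolysis and glucose uptake. None was lower, and the list median was 0.14. The muscle enolase Eno3 stood at -0.07 (SE 0.15) and the insulin-responsive transporter Slc2a4 at -0.21 (SE 0.16), both named after their values were seen and neither past the threshold (adjusted p = 0.821 and 0.479).

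Several of the others encode secreted proteins. The matrix list and the fibroblast markers do not hold every gene of matrix or fibroblasts. The part of fibroblasts in the increases outside these lists was not tested. Serpina3n, an acute-phase protease inhibitor with near-identical copies in the mouse, read 5.68, 5.14 and 5.68 in normal and 8.57, 9.54 and 10.01 in hypertrophic ACMs, 14.6-fold higher (3.87, SE 0.34, adjusted p = 4.67e-04). Serpinf1, which encodes pigment epithelium-derived factor, stood at 3.17 (SE 0.34, adjusted p = 0.00132). Serpinb1a, an inhibitor of neutrophil proteases, read 5.30, 4.76 and 4.81 in normal and 9.21, 10.48 and 6.49 in hypertrophic ACMs. H3 lay well below the other 2, and the call (adjusted p = 0.0271) was lost without N2, N3, H1, H2, E1 or E2 (adjusted p up to 0.0741). Ptn, the growth factor pleiotrophin, and Prcp, a lysosomal prolylcarboxypeptidase, were above background on no normal array and on all hypertrophic arrays. Ptn was at least 10.9-fold higher (adjusted p = 2.26e-04) and Prcp at least 4.76-fold (adjusted p = 8.80e-04). Both met the detection rule only through the hypertrophic arrays, on which they were high. Fstl1, a secreted follistatin-like glycoprotein, read 6.14, 6.55 and 5.91 in normal and 9.60, 10.15 and 9.90 in hypertrophic ACMs, a difference of 3.68 (SE 0.23, adjusted p = 1.03e-04). Mgp encodes matrix Gla protein, an inhibitor of calcification, and was in neither list. It was bright in both groups, at 9.06, 9.93 and 9.49 in normal and 12.62, 13.15 and 12.47 in hypertrophic ACMs, and still rose by 3.25 (SE 0.26, adjusted p = 2.56e-04).

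Lgals3, the lectin galectin-3 that macrophages make in quantity, stood at 3.41 (SE 0.44, adjusted p = 0.00289), with N2 the highest of its group, at 6.30 against 5.10 and 4.38. The cell adhesion molecule Ncam1 stood at 3.30 (SE 0.28, adjusted p = 4.31e-04) through its brightest probe and at 0.41 through its other kept probe. Ecrg4, a secreted peptide precursor, stood at 3.34 (SE 0.34), Itgbl1, an integrin beta-like protein, at 3.04 (SE 0.34), and Srpx2, a secreted sushi-repeat protein, at 2.97 (SE 0.29) (adjusted p = 8.91e-04, 0.00154 and 7.72e-04). Each of these 3 was above background on 1 normal array. Of 9 kept serpin genes, grouped by symbol after the values were seen, 5 were higher (55.6%, against 4.31% of all genes) and none lower. Other families were grouped in the same way. Of 34 core histone genes 4 were higher and 2 lower, and of 23 potassium channel subunits 1 was higher and 2 lower. Of 13 cytochromes P450, 1 was lower and none higher.

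**Figure D3:**
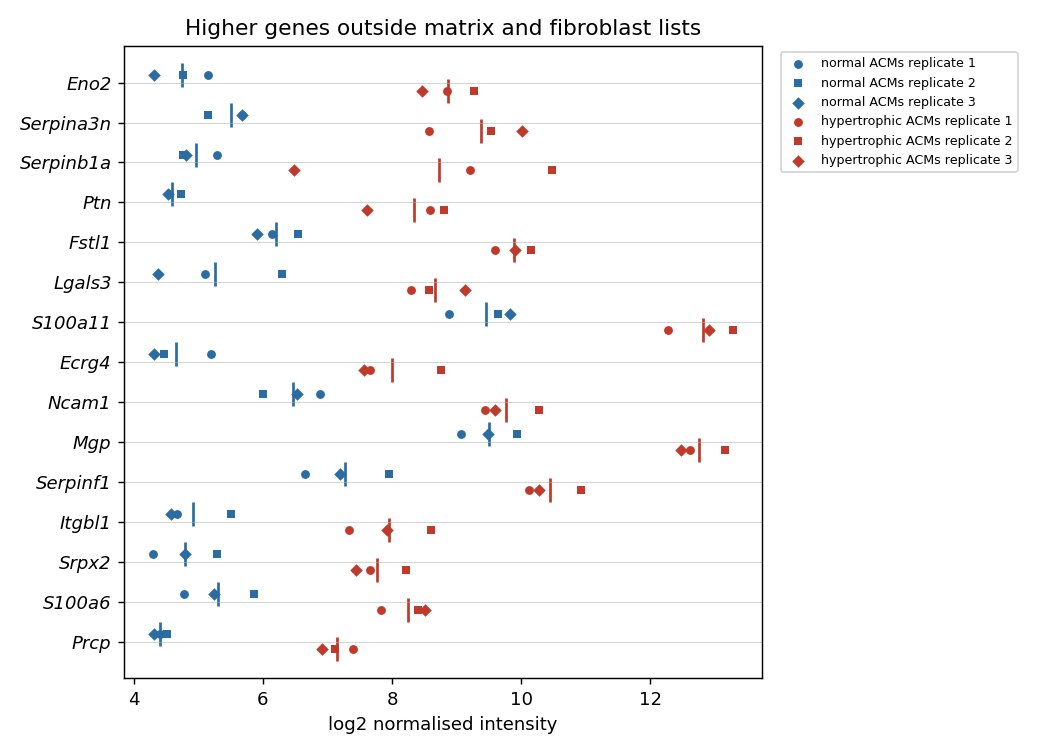
Log2 normalised intensity (x axis) of the 15 called higher genes with the largest difference among those outside the matrix list and the fibroblast markers, on each normal ACM array (blue) and hypertrophic ACM array (red), with a vertical mark at each group mean. Most normal values lie between 4 and 7, and the dimmest signal detected on the normal arrays was 4.84 to 4.95. S100a11 and Mgp are bright in both groups, and the low point of Serpinb1a is H3.

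Several annexins and S100 proteins, which bind calcium and membranes, rose. Of 18 listed annexins and S100 proteins, 14 were kept, 6 higher and none lower, with a median of 0.89. S100a11 read 8.87, 9.65 and 9.83 in normal and 12.27, 13.27 and 12.91 in hypertrophic ACMs, a difference of 3.36 (SE 0.31, adjusted p = 6.50e-04), or 10.3-fold. S100a6, which is expressed in many dividing and differentiating cells, read 4.78, 5.86 and 5.25 in normal and 7.83, 8.40 and 8.503 in hypertrophic ACMs, a difference of 2.95 (SE 0.29, adjusted p = 8.54e-04). Anxa2, Anxa3, Anxa5 and S100a10, of which Anxa2 and S100a10 form a complex at the plasma membrane, stood at 2.70, 2.65, 0.94 and 1.76. The calls lost were Anxa5 without N1, H2 or H3 (adjusted p up to 0.0909) and S100a10 without H2 or H3 (adjusted p up to 0.0684). The CM member S100a1 stood at 0.19 (SE 0.17) and did not pass (adjusted p = 0.570; named, with Anxa5 and S100a10, after its value was seen).

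Of 49 listed cytoskeleton genes, 39 were kept, 14 higher and 1 lower (Iqgap2, above), with a median of 0.88. In 28 of the 39 all hypertrophic arrays lay above all normal arrays, against 13.1% of all genes. Msn, the membrane-cytoskeleton linker moesin, read 7.999, 7.79 and 8.20 in normal and 9.74, 10.09 and 9.73 in hypertrophic ACMs, a difference of 1.86 (SE 0.18, adjusted p = 8.71e-04). The intermediate filament genes nestin (Nes) and vimentin (Vim) stood at 2.34 (SE 0.29, adjusted p = 0.00253) and 2.54 (SE 0.37, adjusted p = 0.00525), and the GTPase Rhoc at 1.53 (SE 0.19, adjusted p = 0.00253). The other kept probe of Nes stood at 0.45. Tmsb10, which binds actin monomers, read 8.22, 9.69 and 9.69 in normal and 10.48, 11.82 and 11.49 in hypertrophic ACMs. H1 was close to the 2 brighter normal arrays, and the call (adjusted p = 0.0279) was lost without H2, H3, E1 or E2 (adjusted p up to 0.102). The count of higher genes was 8 without H2 or H3 or either embryonic array. The beta actin gene Actb, named like Vim after its value was seen, stood at 0.02 (SE 0.36) and did not pass (adjusted p = 0.985), and its other 4 kept probes ranged from -0.86 to 0.73. Several of these genes are expressed by fibroblasts and other cells of the heart, and the fibroblast markers moved with them by the summed levels given above. Their part in these increases was not tested.

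Of 47 listed genes of TGF-beta and growth factor signalling, 37 were kept, 16 higher and none lower, with a median of 1.01. Beside Fstl1 and Ptn they included Mdk, the midkine relative of pleiotrophin, which read 5.85, 6.09 and 5.33 in normal and 8.10, 8.39 and 7.93 in hypertrophic ACMs, a difference of 2.38 (SE 0.23, adjusted p = 7.65e-04) (other kept probe 1.10), and Ccn5, a matricellular protein, at 2.30 (SE 0.22, adjusted p = 7.58e-04). The ligands Tgfb2, Tgfb3, Bmp4 and Inhba stood at 1.19, 1.33, 1.37 and 1.498, and Igf1 and Igf2 at 0.89 and 1.85. Tgfb1 stood at -0.28 (SE 0.16) and its receptor Tgfbr2 at 0.45 (SE 0.16), and neither passed (adjusted p = 0.331 and 0.134). These 8 genes were named after their values were seen, and the calls lost were Tgfb2 without N3, H2 or H3 (adjusted p up to 0.0857), Igf1 without N1, N2, N3, H2, H3, E1 or E2 (adjusted p up to 0.123) and Igf2 without N1, N2, H2, H3, E1 or E2 (adjusted p up to 0.119). The count of higher genes was 9 without H2 and 10 without H3.

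Cell cycle genes were higher in part. Of 55 listed, 33 were kept, 7 higher and none lower, with a median of 0.44. Over all genes, 4.31% were higher and 2.15% lower. Prc1, which bundles microtubules of the central spindle, read 4.36, 5.20 and 4.98 in normal and 6.52, 7.40 and 6.98 in hypertrophic ACMs, a difference of 2.12 (SE 0.28, adjusted p = 0.00315). Cdk1, the kinase of mitotic entry, was above background on no normal array and at least 2.49-fold higher (adjusted p = 0.0248). Birc5, survivin of the chromosomal passenger complex, stood at 1.15 (SE 0.18, adjusted p = 0.00829). The S phase gene Uhrf1 stood at 1.12 and Cdca3, a regulator of mitotic entry, at 0.99. The transcription factor gene E2f1 and the kinesin gene Kif22, above background on no normal array, were at least 1.35-fold and 1.75-fold higher. Cdk1, E2f1 and Kif22 thus met the detection rule only through the hypertrophic arrays, on which they were high. Of these 7, Prc1 and Birc5 were stable, and the calls lost were Cdk1 without N1, N3, H2, H3, E1 or E2 (adjusted p up to 0.0895), Uhrf1 without N3, H2, H3, E1 or E2 (adjusted p up to 0.0974), Cdca3 without N1, N3, H1, H2, H3, E1 or E2 (adjusted p up to 0.108), E2f1 without N1, N3, H2, E1 or E2 (adjusted p up to 0.0834) and Kif22 without N3, H2 or H3 (adjusted p up to 0.0774). Cdk2 stood at 0.27 (SE 0.17) and did not pass (adjusted p = 0.386), and its other 2 kept probes were at -0.51 and -0.37. The count of higher genes was 2 without H2, 3 without either embryonic array and 4 without N1 or N3 or H3. All 7 levels in hypertrophic ACMs were low, from 5.32 to 6.97. Cdk1, Uhrf1 and Cdca3 were named after their values were seen. These genes serve division of any cell type, and which cells carried the transcripts was not tested.

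Of 39 kept genes of ER folding and secretion, 4 were higher and none lower (median 0.03), namely the ER retention receptor Kdelr3 at 1.59 (SE 0.25, adjusted p = 0.00722), the procollagen proteinase Bmp1 at 1.04 (SE 0.18, adjusted p = 0.0112), the disulfide isomerase P4hb at 1.00 (SE 0.17, adjusted p = 0.0114) and the prolyl hydroxylase P3h3 at 1.11 (SE 0.24, adjusted p = 0.0271). The ER chaperone Hspa5 stood at 0.12 (SE 0.34) and the stress factor Ddit3 at -0.20 (SE 0.28), both named after their values were seen and not past the threshold (adjusted p = 0.870 and 0.731). Without H3, 2 were higher, and the calls lost were P4hb without H3 (adjusted p up to 0.0505) and P3h3 without N1, N3, H2, H3, E1 or E2 (adjusted p up to 0.0956). In the antioxidant list, with 22 kept, Gpx3, a secreted glutathione peroxidase, read 10.66, 10.83 and 10.32 in normal and 12.86, 12.79 and 13.13 in hypertrophic ACMs, a difference of 2.33 (SE 0.18, adjusted p = 2.56e-04). Gclm, a subunit of the enzyme that begins glutathione synthesis, stood at 0.81 (SE 0.15, adjusted p = 0.0172) and Gpx1 at 0.95 (SE 0.21, adjusted p = 0.0349), while Gstk1, a glutathione transferase of mitochondria and peroxisomes, was lower, at -0.88 (SE 0.21, adjusted p = 0.0430). Without N3 or H3 the higher count was 1, and the calls lost were Gclm without N3 or H3 (adjusted p up to 0.0686), Gpx1 without N2, N3, H1, H2, H3, E1 or E2 (adjusted p up to 0.118) and Gstk1 without N1, N2, N3, H2, H3, E1 or E2 (adjusted p up to 0.139). Of 31 kept lysosome and autophagy genes, 4 were higher and none lower (median 0.14), the tetraspanin Cd63 at 1.07 (SE 0.16, adjusted p = 0.00655), progranulin (Grn) at 1.06 (SE 0.20, adjusted p = 0.0165), and the cathepsins Ctsa at 1.27 (SE 0.29, adjusted p = 0.0349) and Ctsz at 1.43 (SE 0.33, adjusted p = 0.0378). That count was 1 without H2 or H3 and 2 without either embryonic array, and the calls lost were Grn without H2 or H3 (adjusted p up to 0.0654), Ctsa without H1, H2, H3, E1 or E2 (adjusted p up to 0.121) and Ctsz without H2, H3, E1 or E2 (adjusted p up to 0.130). The other 3 kept probes of Ctsa ranged from 0.22 to 0.93.

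Genes of hypertrophy differed, among them isoforms particular to muscle. Of 22 listed genes of hypertrophy and the fetal program, 17 were kept, 8 higher and 1 lower, with a median of 1.15. Myh7, the myosin heavy chain of the fetal mouse ventricle, read 7.64, 6.82 and 6.84 in normal ACMs against 9.33, 9.14 and 9.09 in hypertrophic ACMs, 4.24-fold higher with a difference of 2.08 (SE 0.23, adjusted p = 0.00150). It rose without overlap, and in embryonic CMs the mean level was 12.45. Myh6, the adult isoform, read 15.04, 14.95 and 15.01 in normal and 14.95, 14.99 and 14.90 in hypertrophic ACMs and did not pass, at -0.05 (SE 0.15, adjusted p = 0.876). Fhl1, a LIM protein of the sarcomere that responds to stretch, stood at 1.36 (SE 0.17, adjusted p = 0.00291), Uchl1, a deubiquitinase, at 2.10 (SE 0.26, adjusted p = 0.00260), and Ccn2, the connective tissue growth factor, at 1.41 (SE 0.19, adjusted p = 0.00396). Rcan1, a target and regulator of calcineurin, stood at 1.15, the skeletal myosin-binding protein Mybpc2 at 1.87, the atrial light chain Myl4 at 1.72 and the natriuretic peptide gene Nppb at 0.81. The calls lost were Rcan1 without N1, H1 or H2 (adjusted p up to 0.0674), Mybpc2 without H2, E1 or E2 (adjusted p up to 0.0687), Myl4 without N1, N3, H1, E1 or E2 (adjusted p up to 0.108) and Nppb without N3, H1, H2 or H3 (adjusted p up to 0.0868). Its relative Nppa read 14.99, 14.004 and 13.74 in normal and 14.93, 14.82 and 14.78 in hypertrophic ACMs and did not pass (adjusted p = 0.256), nor did the skeletal actin Acta1, at 1.17 (SE 0.36, adjusted p = 0.0919), whose groups were apart. The smooth muscle actin Acta2 was the lower gene, at -1.12 (SE 0.23, adjusted p = 0.0249), and was lost without N1, N3, H1, H2, E1 or E2 (adjusted p up to 0.0911). Rcan1, Mybpc2, Myl4, Nppb, Nppa and Acta1 were named after their values were seen. Without H1 or H2, 5 genes were higher. Of 20 kept sarcomere genes, the intermediate filament gene desmin (Des) was higher, at 1.06 (SE 0.18, adjusted p = 0.00945), none was lower and the median was 0.01. Without N2 or H1, 2 were higher.

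Matrix genes included the 4 called genes with the largest differences, Col1a1, Mfap5, Lox and Timp1. Of 71 listed, 47 were kept, 36 higher and none lower, with a median of 2.06. The summed matrix signal was 12382 to 16738 on the normal and 35079 to 62042 on the hypertrophic ACM arrays. Col1a1, a chain of type I collagen, read 4.38, 5.93 and 5.66 in normal and 9.24, 11.10 and 10.40 in hypertrophic ACMs, a difference of 4.92 (SE 0.51, adjusted p = 0.00100). Mfap5 and Mfap4, of elastic microfibrils, stood at 4.67 and 4.002, elastin (Eln) at 3.41, the protease inhibitor Timp1 at 4.36, and Col3a1 and Col16a1 at 3.63 and 3.59. Lox, which cross-links collagen, was at least 14.6-fold higher (adjusted p = 1.03e-04) and met the detection rule only through the hypertrophic arrays. Of 20 fibroblast markers, 16 were kept, and 12 were higher and none lower, with a median of 1.46. The defining gene Pdgfra stood at 1.19 (SE 0.45) and did not pass (adjusted p = 0.160; named after its value was seen), but without N2, the normal array on which it was brightest, it stood at 1.78 (SE 0.26, adjusted p = 0.00725), while Tcf21, a fibroblast transcription factor, and Thy1, a surface glycoprotein, stood at 1.45 (SE 0.32, adjusted p = 0.0299) and 1.46 (SE 0.30, adjusted p = 0.0247), also named after their values were seen. The calls lost were Tcf21 without H1, H2 or H3 (adjusted p up to 0.0997) and Thy1 without N1, N3, H2, H3, E1 or E2 (adjusted p up to 0.0684). Ddr2, Postn and Clec3b were not kept and Smoc2 had no named probe. The matrix and fibroblast lists share genes. The fibroblast count was 5 without H2 or H3 and 6 without either embryonic array. The part of these cells in the matrix increase was not tested.

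Of 18 kept endothelial markers, Plvap, of endothelial fenestrae, and Vwf, the von Willebrand factor, were higher, at 1.56 (SE 0.19, adjusted p = 0.00229) and 1.27 (SE 0.31, adjusted p = 0.0463), and none was lower. The list median was 0.64, against -0.03 for all genes. The summed endothelial signal varied among normal arrays, at 4907, 7228 and 10194, and overlapped that of hypertrophic arrays, at 7022, 10771 and 9479. The call of Vwf was lost without N1, N2, H1, H2, H3, E1 or E2 (adjusted p up to 0.150). Pecam1, a marker of all endothelium chosen after its value was seen, stood at 0.72 (SE 0.43, adjusted p = 0.360). Of 14 kept smooth muscle and pericyte markers, 3 were higher and 2 lower, with a median of 0.48. Beside Des, the higher ones were Mcam, an adhesion molecule, at 1.31 (SE 0.28, adjusted p = 0.0264), and Cspg4, a pericyte proteoglycan named after its value was seen, at 0.77 (SE 0.19, adjusted p = 0.0464), and beside Acta2 the lower one was Abcc9, the channel subunit SUR2, at -0.83 (SE 0.18, adjusted p = 0.0292). The calls lost were Mcam without N1, H2, H3, E1 or E2 (adjusted p up to 0.0835), Cspg4 without N1, N2, H1, H2, H3, E1 or E2 (adjusted p up to 0.144) and Abcc9 without N1, N2, N3, H1, H2, E1 or E2 (adjusted p up to 0.104). The other kept probes stood at 0.13 and 0.74 for Mcam and at -0.31 for Abcc9.

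**Figure D4:**
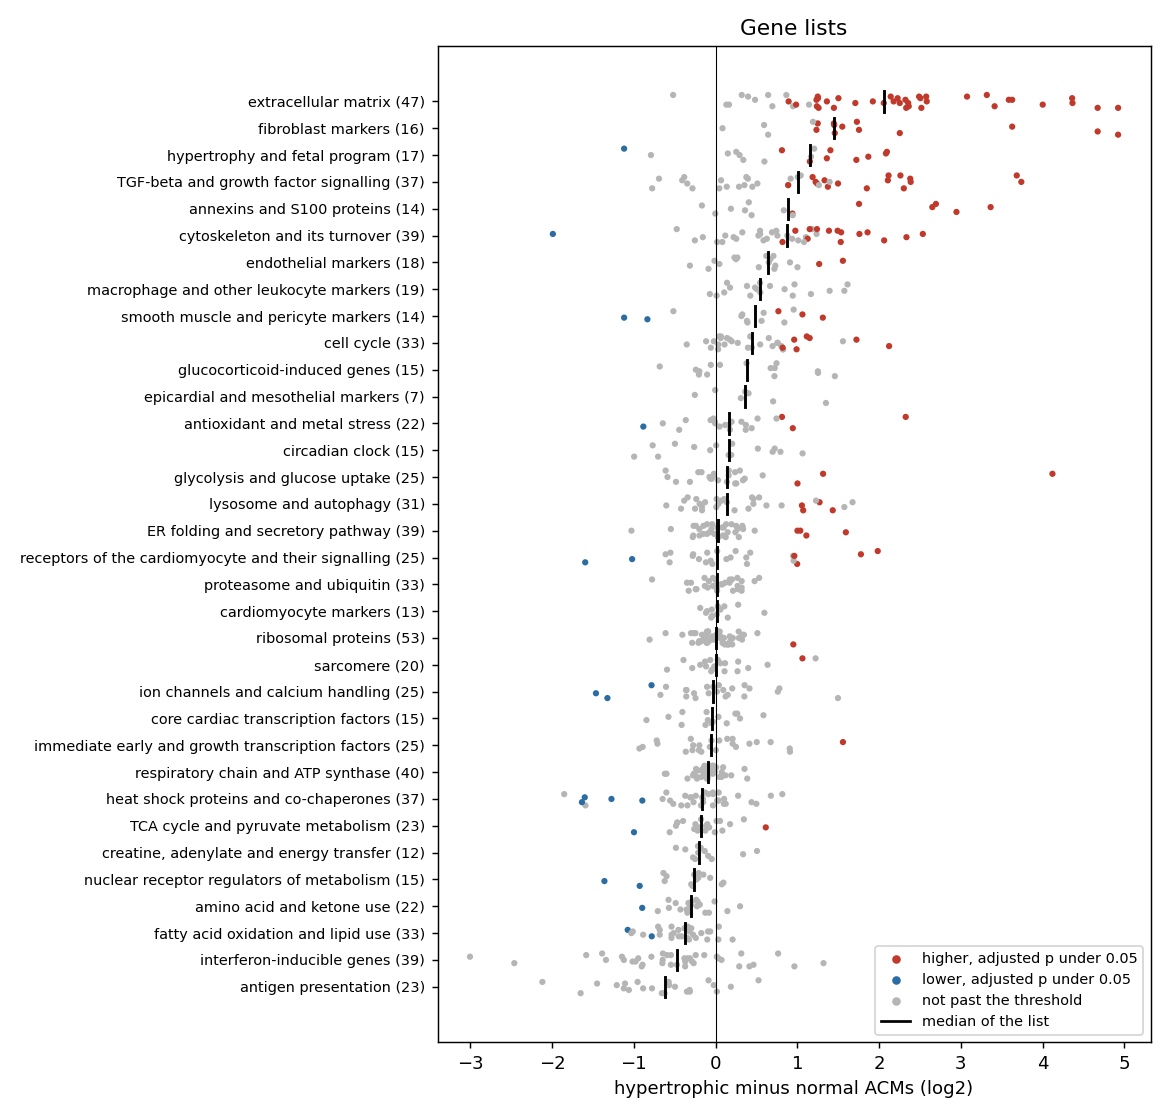
Log2 difference of hypertrophic minus normal ACMs (x axis) for every kept member of the gene lists with 7 or more kept genes, ordered by the list median (black bar), with the number kept in parentheses. Called genes are red (higher) or blue (lower). Matrix genes stand highest, at a median of 2.06, and the interferon and antigen presentation lists lowest, at -0.47 and -0.62, without a call.

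Other lists showed few calls. Among 53 kept ribosomal protein genes, Rpl3 was higher, at 0.95 (SE 0.17, adjusted p = 0.0137), and the median was 0.01, while its muscle paralog Rpl3l stood at -0.25 (SE 0.16) and did not pass (adjusted p = 0.404; named after its value was seen). Of 25 kept immediate early and growth transcription factors, Egr2 was higher, at 1.56 (SE 0.19, adjusted p = 0.00252), and Jun, Fos and Egr1 did not pass, at -0.71, -0.17 and 0.14 (named after their values were seen). None passed with limma among the kept genes of the proteasome (33), the circadian clock (15), glucocorticoid-induced genes (15), core cardiac transcription factors (15) and creatine and adenylate transfer (12). At an unadjusted p under 0.05, these lists held 1, 2, 4, 1 and 1 higher and 1, 3, 0, 2 and 2 lower genes in that order, and with 1 array left out no more than 2 of any of them passed in a direction. Of the epicardial and mesothelial (12), erythroid and platelet (14), adipocyte (7) and Schwann and neural (6) markers, 7, 2, 2 and 1 were kept, and none passed (limma, 1 epicardial marker higher at an unadjusted p under 0.05). Fosl1 and Myc were not kept and Ccnb1 had no named probe, and the transcription factor Sox4, above background on 2 hypertrophic arrays and no normal array, stood near background, at 4.31 and 4.66 (adjusted p = 0.312).

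The interferon signal of N2 is described without a test, since it is 1 array. Relative to the mean of N1 and N3, all 39 kept genes of 72 listed interferon-inducible genes were higher on it, with a median difference of 2.26 on the log2 scale. Of 23 kept antigen presentation genes, 22 were higher, with a median of 3.22. Over all 8732 genes the median was 0.03, with 5% of genes under -0.75 and 5% over 0.84. In all, 64 genes stood over 2 above the other normal arrays, of which 35 were among the 62 genes of these lists. Read the same way, N1 had 10 such genes and N3 had 6.

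The largest difference was in Igtp, an interferon-gamma-induced GTPase. It read 7.82, 14.84 and 7.57 in normal ACMs against 7.37, 7.16 and 6.69 in hypertrophic ACMs, and N2 stood 7.15 above the mean of N1 and N3. Irgm2, of the same GTPase family, read 7.80, 13.69 and 8.58 in normal and 7.81, 7.72 and 7.15 in hypertrophic ACMs. The guanylate-binding protein Gbp3 and the antiviral Ifit3 stood 5.16 and 5.42 above the other normal arrays, and Parp14, an ADP-ribosyltransferase, 5.11. Of peptide presentation, the immunoproteasome subunit Psmb9 read 5.23, 11.64 and 5.84 in normal and 5.68, 4.89 and 5.79 in hypertrophic ACMs, and the MHC genes H2-T23 and H2-Ab1, whose probes may read related genes, stood 6.95 and 4.95 above. Cd274, the checkpoint ligand PD-L1, read 4.41, 11.63 and 5.20 in normal and 4.46, 4.41 and 4.52 in hypertrophic ACMs and was above background on no hypertrophic array. Vmn1r65, annotated as a vomeronasal receptor, completed the 10 largest differences, at 6.91. On the hypertrophic arrays all 10 lay far below N2, while Ifit3, H2-T23, H2-Ab1 and Gbp3 lay above both N1 and N3 on each of them.

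The bases before the start sites of 6 of these 10 genes are shown because these genes were high together on N2 and the stretches hold a motif known from interferon-induced promoters. Sequences are RefSeq's for GRCm38.p6, the 150 bases before the start site that the table lists first, 5′ to 3′ on the gene's strand. Capitals mark GAAANNGAA or TTCNNTTTC, a core of the interferon-stimulated response element on either strand, and TTCNNNGAA, the gamma-activated site, and matches can overlap. The stretches are chr11:58199406-58199555 on the plus strand for Igtp, chr11:58214827-58214976 on the plus strand for Irgm2, chr19:29367288-29367437 on the plus strand for Cd274, chr19:34583379-34583528 on the plus strand for Ifit3, chr3:142559894-142560043 on the plus strand for Gbp3 and chr17:36032702-36032851 on the minus strand for H2-T23.
Igtp: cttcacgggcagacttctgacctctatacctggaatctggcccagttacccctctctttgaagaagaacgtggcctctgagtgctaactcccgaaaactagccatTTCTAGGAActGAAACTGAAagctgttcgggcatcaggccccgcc
Irgm2: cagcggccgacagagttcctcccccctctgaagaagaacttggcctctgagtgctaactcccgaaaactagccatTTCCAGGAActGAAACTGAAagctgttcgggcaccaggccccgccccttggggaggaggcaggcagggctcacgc
Cd274: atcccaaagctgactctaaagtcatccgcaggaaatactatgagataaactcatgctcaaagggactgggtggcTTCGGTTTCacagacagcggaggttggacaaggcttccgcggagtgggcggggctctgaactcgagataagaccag
Ifit3: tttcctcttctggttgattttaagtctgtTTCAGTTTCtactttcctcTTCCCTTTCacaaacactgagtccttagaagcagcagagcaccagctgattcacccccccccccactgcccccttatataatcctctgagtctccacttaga
Gbp3: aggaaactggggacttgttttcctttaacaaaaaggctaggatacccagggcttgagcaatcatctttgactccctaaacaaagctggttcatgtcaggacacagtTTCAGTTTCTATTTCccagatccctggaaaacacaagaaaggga
H2-T23: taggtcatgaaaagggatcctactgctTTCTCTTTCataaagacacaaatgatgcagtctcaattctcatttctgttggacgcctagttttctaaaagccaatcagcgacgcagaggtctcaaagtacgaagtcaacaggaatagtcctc

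Igtp and Irgm2, which carry both motifs, share a run of 38 identical bases. Searched over 250 bases, the response element core was in 6 of the 8 of these 10 genes with a promoter in the table and in 16 of 46 kept genes of both lists, against 7.16% of all 27025 genes in the table. The gamma-activated site was in 9 of the same 46 and in 7.18% of all. For comparison, the heat shock element pairs GAANNTTC and TTCNNGAA were in 2 of the 4 lower heat shock genes, Hsph1 and Fkbp4, and in 12.9% of all. The same pairs were in 7 of the 31 kept heat shock genes with a promoter. They were also in 10 of the 46 interferon and antigen presentation genes. Among the 8 of the 10 genes highest on N2 that had a promoter, 2 held them. The pairs were thus not particular to heat shock genes. A longer heat shock element of 3 units was in 0 of the 4 lower genes and in 0.4% of all. A match is a description and not a site of binding.

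Leukocyte markers were higher on the same array. Relative to N1 and N3, all 19 kept of 35 listed leukocyte markers stood above, with a median of 1.53, and their summed signal was 6308 on N2 against 1208 and 2363 on N1 and N3. CM markers had a median of -0.07. The general leukocyte marker Ptprc and the T and B cell markers Cd3e, Cd3g, Cd79a, Cd79b and Ms4a1 were not kept. The part of these cells in the interferon signal was not tested.

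N2 changed what the comparison showed for these lists. With all arrays, none of 39 interferon-inducible, 23 antigen presentation and 19 leukocyte genes passed with limma (1 and 2, 0 and 1, and 5 and 0 had an unadjusted p under 0.05 upwards and downwards), and the medians were -0.47, -0.62 and 0.55. Without N2, 4.74% of all genes were higher and 2.3% lower. Then 5 interferon-inducible genes, 1 antigen presentation gene and 8 leukocyte markers were higher and none lower, with medians of 0.25, 0.23 and 1.12. Lgals3bp, a secreted scavenger receptor protein, stood at 1.48 (SE 0.25, adjusted p = 0.0136), and Ifit2 and Ifit3 at 1.03 (SE 0.20, adjusted p = 0.0219) and 1.26 (SE 0.28, adjusted p = 0.0343). The others were Ifi27l2a, Oasl2 and H2-T23. Laptm5, a lysosomal protein of leukocytes, stood at 2.27 (SE 0.31, adjusted p = 0.00597), the lysozyme gene Lyz2 at 1.92 (SE 0.43, adjusted p = 0.0347), the complement gene C1qc at 1.50 (SE 0.25, adjusted p = 0.0125) and the macrophage receptor gene Adgre1 at 1.12 (SE 0.22, adjusted p = 0.0222). With that array, Laptm5 stood at 1.58 (SE 0.53) and Lyz2 at 1.40 (SE 0.51). Genes named in this paragraph were chosen after their values were seen. The matrix and heat shock counts were 33 and 4 without this array, against 36 and 4 with it.

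**Figure D5:**
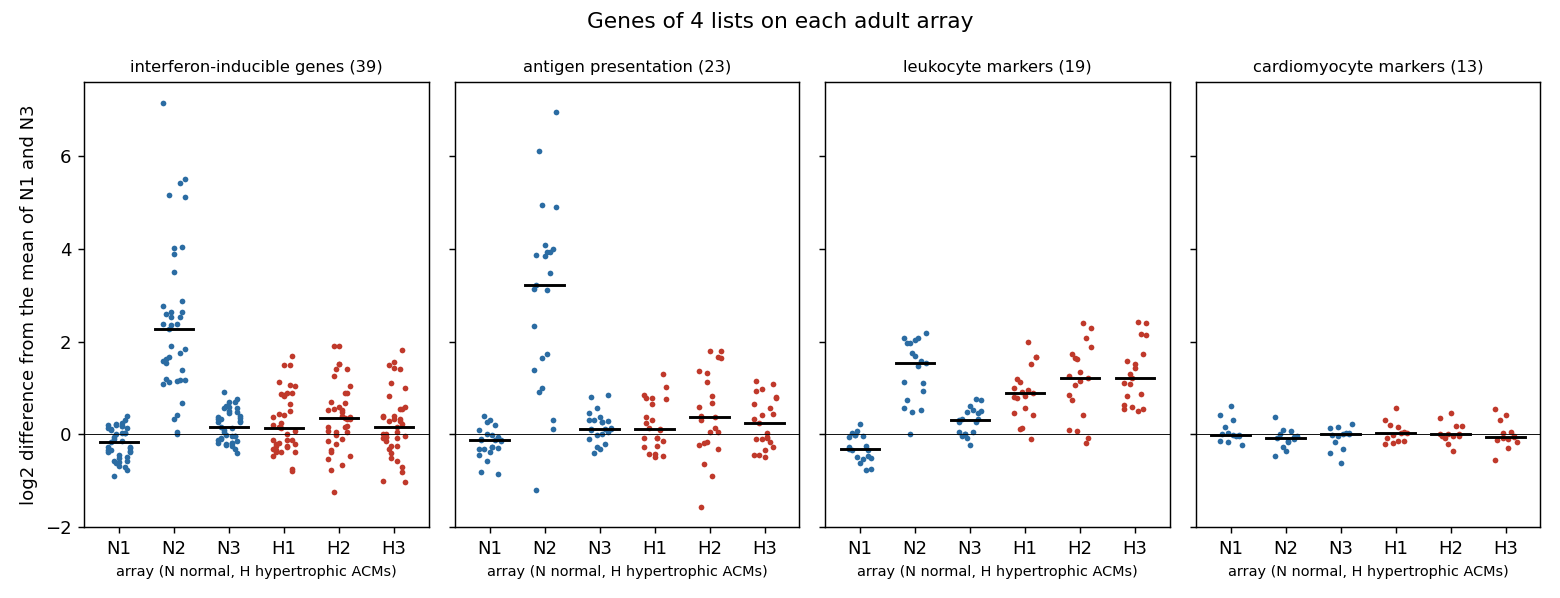
Log2 difference of each kept gene of 4 lists from the mean of N1 and N3 (y axis) on each adult array, N1 to N3 for normal and H1 to H3 for hypertrophic ACMs, with a black bar at the median. The second normal array stands high in the interferon and antigen presentation lists, the leukocyte markers are high on it and on the 3 hypertrophic arrays, and CM markers lie near 0 on every array.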

How the data were processed

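Total RNA of 8 samples was read on Illumina MouseRef-8 v2.0 BeadChips. The deposited table, extracted by the authors with GenomeStudio (2011 in the submitters' processing notes), gives the intensity of each probe on a linear scale and its detection p-value, without background subtraction or normalisation. A second deposited table of the authors' background-subtracted, quantile-normalised intensity was used as an alternative only. Of 25697 probes, 23978 had 1 gene symbol in the platform annotation and 1719 had none.

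Background was corrected in limma 3.58.1 (R 4.3.3) by the normexp model fitted through detection p, adding an offset of 16, and the 8 arrays were quantile-normalised and put on the log2 scale. Genes with a probe of detection p under 0.05 on at least 2 of 6 adult arrays were kept and represented by the brightest kept probe. A linear model with 3 group means and moderated variances (limma) gave hypertrophic minus normal ACMs, with Benjamini-Hochberg adjustment over 8732 genes and a threshold of 0.05. Genes detected on some arrays only pass the detection rule through the group in which they are high, which raises their share among calls. The number of arrays limits the precision.

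Genes were named by rule: the 15 lower and 15 higher called genes with the largest change, the 15 higher ones outside the matrix and fibroblast lists, up to 4 members of each of 37 lists with the smallest p, the 10 genes highest on N2, and genes named in the study's text. The members and lists were chosen with earlier results of these data known. Alternatives changed the arrays normalised or fitted, the scaling, the background correction, the table, the filter, the probe summary, the variance model, array weights, the threshold and the replicate block, and left out each array in turn. Detection on all 6 arrays was added after seeing the data. Promoters were searched with Python 3.11.15 in RefSeq sequence of GRCm38.p6, and the chip of each array is not given in the sources used here. The fit was tested on simulated data. Over all genes, the share of false calls there lay above the share that the adjusted p threshold allows. The excess lay in genes not detected on all 6 adult arrays. Among genes detected on all 6 the share lay below it, and the limit for these was set after seeing the values. In the real data, genes detected on 3 to 5 arrays made up 129 higher and 35 lower calls, and genes detected on exactly 2 arrays 0 and 2.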

Additional observations from a re-analysis of the deposited data

How the results depend on the processing

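None of the 564 called genes changed direction under any alternative. The 376 higher and 188 lower genes became 109 lower with the 6 adult arrays normalised and fitted alone, 235 and 70 with only these 6 fitted, 85 lower under median scaling (which moved the median of all genes from -0.03 to 0.04) and 144 and 23 at an adjusted p under 0.01. All lists together gave 118 higher and 19 lower genes. Lower genes of all lists were 10 with only 6 arrays fitted, 36 without background correction, 33 with trended robust variances and 5 (64 higher) at an adjusted p under 0.01. Lipid genes, 2 in the main setting, were 1 with 6 arrays fitted or the mean of probes, 9 without background correction, 8 with trended variances and 0 at an adjusted p under 0.01. At that threshold 4 hypertrophy, 9 TGF-beta, 8 cytoskeleton and 2 heat shock genes passed, with 8 cytoskeleton genes when 6 arrays were fitted and 2 heat shock genes under median scaling. Detection on all 6 arrays, chosen after seeing the data, gave 299 higher and 205 lower genes. With 1 array left out, the counts ranged from 181 to 414 higher and 52 to 201 lower in all, 72 to 129 higher and 6 to 22 lower in the lists, 0 to 4 lipid, 2 to 5 heat shock, 5 to 8 hypertrophy, 8 to 15 cytoskeleton, 9 to 18 TGF-beta and 28 to 35 matrix genes. An embryonic array left alone adds nothing to the estimate of the spread, which gave 235 and 70. With 1 array left out, the difference of Ifit3 ranged from -1.60 to 1.26 and that of H2-T23 from -2.32 to 1.21, both positive only without normal ACM replicate 2. The median difference of that array was 1.19 in interferon-inducible genes without background correction, and in antigen presentation genes 2.15 without it, 3.49 under median scaling and 3.83 in the authors' table. Apart from these constructions, the cause of each shift was not tested.

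The samples share only replicate numbers. Deviations of same-numbered arrays correlated at 0.131, 0.045 and -0.047, and normal ACM replicate 3 did not correlate best with its own number. With the replicate number as a block, 123 genes were lower and 1 lipid gene was lower.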

Other observations

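Sspn, which encodes sarcospan of the dystrophin complex, had the largest difference of any gene kept, 5.37 on the log2 scale (SE 2.10), and did not pass in limma (adjusted p = 0.172). It read 4.22, 4.25 and 4.56 on the normal ACM arrays, 4.45, 12.35 and 12.36 on the hypertrophic ACM arrays and 10.24 and 4.15 on the embryonic CM arrays. It was thus near background on 5 of the 8 arrays and among the brighter genes on the other 3, which come from both the hypertrophic and the embryonic group. It was chosen after its values were seen.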
